A study of Mus musculus with 1 sample.

Results

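The 36 genes described here act in the cell cycle and were chosen by name, and all 36 were found by symbol among the 32285 genes of 1 single-cell library of mouse pancreas. They comprise 22 genes of mitosis and the preceding G2 phase (the mitotic set), 9 genes of DNA replication (the S phase set: *Mcm2* to *Mcm7*, *Pcna*, *Rrm2* and *Tyms*) and 5 other genes of G1 and S phase (*Pclaf*, *Ccne1*, *Ccne2*, *Hells* and *Uhrf1*). The library came from dissociated, pooled pancreata of 5 to 6 *Scap* f/f mice, with males and females in equal number, at 2 weeks of age. *Scap* f/f mice carry loxP-flanked alleles of *Scap* without Cre recombinase (*Scap* encodes the escort protein that activates SREBP transcription factors) and are the control genotype of a study that deletes *Scap* with *Pdx1-Cre* in the pancreas. No replicate library was analysed and single mice cannot be told apart, so the values compare cell classes within 1 library, no test was made, and every interval is an exact 95% interval for counting error only.

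A cell commits to division in G1, when D type and then E type cyclins with their kinases release E2F factors to transcribe replication genes. MCM helicases open the DNA in S phase, PCNA clamps the polymerases, and ribonucleotide reductase and thymidylate synthase supply nucleotides. Cyclins A and B with CDK1 then drive mitosis, and the anaphase-promoting complex with CDC20 and UBE2C ends it by marking cyclins and securin for destruction. The pancreas of the young mouse is still growing, and its acinar, duct and stromal cells and its resident blood cells can all contribute dividing cells.

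Each unique molecular identifier (UMI) stands for 1 captured transcript, and CPM is UMIs of a gene per 1000000 UMIs of a class. Of 11789 barcodes, 10947 lay between the limits of 800 and 100000 UMIs and had a mitochondrial share below 15%, with a median of 2650 UMIs and 1326 genes. A gate on lineage markers placed 9601 of them (87.7%) in a class. Another 1037 were left out as mixed for passing gates of more than 1 lineage, and 309 passed none. The 11 classes of at least 50 cells were fibroblasts (5745 cells), acinar cells (966), T cells (907), mesothelial cells (512), B cells (401), red blood cells (398), endothelial cells (167), endothelial cells with mural markers (150), mural cells (137), macrophages or dendritic cells (81) and duct cells (50). In each of these 11 classes every marker of its gate had UMIs. In macrophages or dendritic cells the median was 0 macrophage and 30.4 dendritic marker UMIs per 10000. Many cells of that class thus passed on dendritic markers alone. The mesothelial class, whose cells were retained when they also passed the fibroblast gate, held 30871 CPM of the 8 fibroblast markers, against 56228 CPM in fibroblasts. Acinar markers made up 3817 to 13594 CPM in the other 10 classes against 252779 CPM in acinar cells. Endothelial cells with mural markers passed both gates and had a median of 6392 UMIs, against 3715 in endothelial cells and 2318 in mural cells. Apart from a doublet score, whether their barcodes hold more than 1 cell was not tested. Classes below carry the name of their gate. The red blood gate did not separate immature from mature red blood cells.

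All 36 genes had UMIs, 54341 in total or 0.110% of the retained UMIs: 32869 of the mitotic set, 15239 of the S phase set and 6233 of the others. The mitotic UMIs were concentrated in few cells. Of the retained cells 70.7% had none and 14.3% had exactly 1, whereas 707 cells with 10 or more held 85.3% of them.

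Cells with mitotic transcripts occurred in every class, and their share after equalising depth was lowest in fibroblasts, the most numerous class. To compare classes of different depth, every cell was thinned at random to 800 UMIs and counted when 2 or more UMIs of a set remained. After thinning, 3.97% (3.48 to 4.51) of fibroblasts had mitotic UMIs. The share was 14.6% (11.3 to 18.4) in red blood cells and 16% (7.17 to 29.1) in duct cells. The intervals of both lay above that of fibroblasts. The red blood share is not that of a uniform class. It was 79.3% in the 29 cells with 6.4 to 50% of their UMIs from red blood markers and 0.418% in the 239 cells with 90 to 100%. Endothelial cells with mural markers had 14% (8.88 to 20.6), mural cells 9.49% (5.15 to 15.7) and endothelial cells 8.98% (5.12 to 14.4). T cells had 9.48% (7.65 to 11.6) and B cells 8.73% (6.16 to 11.9). The lymphoid and vascular intervals overlapped each other and lay above that of fibroblasts. Acinar cells had 7.66% (6.06 to 9.52), mesothelial cells 7.03% (4.97 to 9.602), and macrophages or dendritic cells 6.17% (2.03 to 13.8), the last with an interval that included the fibroblast share. The order against fibroblasts turned for acinar cells when 3 UMIs were required, at 2.90% against 3.19%. It turned for macrophages or dendritic cells when classes came from clusters made without the listed cell cycle genes, at 1.05%, or from a stricter gate. Of the mesothelial cells 15.4% and of the macrophages or dendritic cells 18.5% lay within 1.5-fold of their gate. With the 10000 UMI ceiling that the study used, 27 duct cells were left and none met the criterion, which allows a share of up to 11.1%, and the share of endothelial cells with mural markers was 9%. With a lower limit of 1500 UMIs the share was 27.4% in red blood cells and 17.3% in B cells. With enzyme UMIs left out and cells thinned to 500 UMIs it was 6% in duct cells, 8.67% in endothelial cells with mural markers and 11.6% in acinar cells.

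Before thinning, the share with 2 or more mitotic UMIs was 7.96% (7.27 to 8.69) in fibroblasts, 15.3% (13.04 to 17.8) in T cells and 41.4% (38.3 to 44.6) in acinar cells, whose median depths were 2679, 1738 and 6017 UMIs. The unthinned order therefore followed depth in part. Red blood cells with at least 90% of their UMIs from red blood markers gave 0.418% (0.0106 to 2.31) after thinning and 3.77% before, but with a median of 104 UMIs outside the markers they are no reference for the other classes. Free RNA was estimated from the acinar markers in the other classes and from the fibroblast markers in acinar cells. All retained cells pooled served as its profile. On that assumption it made up 4.97% to 8.68% of UMIs in 10 classes and 17.7% in duct cells. It would then put 2 mitotic UMIs in 0.420% of the cells of a class or fewer. The estimate is no upper bound where free RNA has another profile.

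The S phase share had another order, led by T cells among the 11 classes. After thinning, 2 or more S phase UMIs were found in 7.497% (5.87 to 9.41) of T cells, 6.59% (3.33 to 11.5) of endothelial cells and 5.27% (3.504 to 7.58) of mesothelial cells. Of the 3, the T cell interval alone lay above that of fibroblasts, at 3.36% (2.91 to 3.86). Mural cells had 5.11% (2.08 to 10.2), B cells 4.49% (2.68 to 7.002), red blood cells 4.02% (2.31 to 6.45) and duct cells 4% (0.488 to 13.7). Each of these 4 intervals included the fibroblast value. Acinar cells, at 1.86% (1.11 to 2.93), endothelial cells with mural markers, at 2% (0.414 to 5.73), and macrophages or dendritic cells, at 1.24% (0.0312 to 6.69), had the lowest shares. Endothelial cells with mural markers were above fibroblasts with 1 UMI in place of 2 (20.7% against 16.4%), without enzyme UMIs (2.67% against 1.72%) and in the mean over all random draws (4.95% against 3.18%). The acinar order against fibroblasts turned once digestive enzyme UMIs were left out. Because 1 random draw decides few cells in a small class, the exact mean over all draws was also taken, and it was 1.65% for acinar cells.

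**Figure D1:**
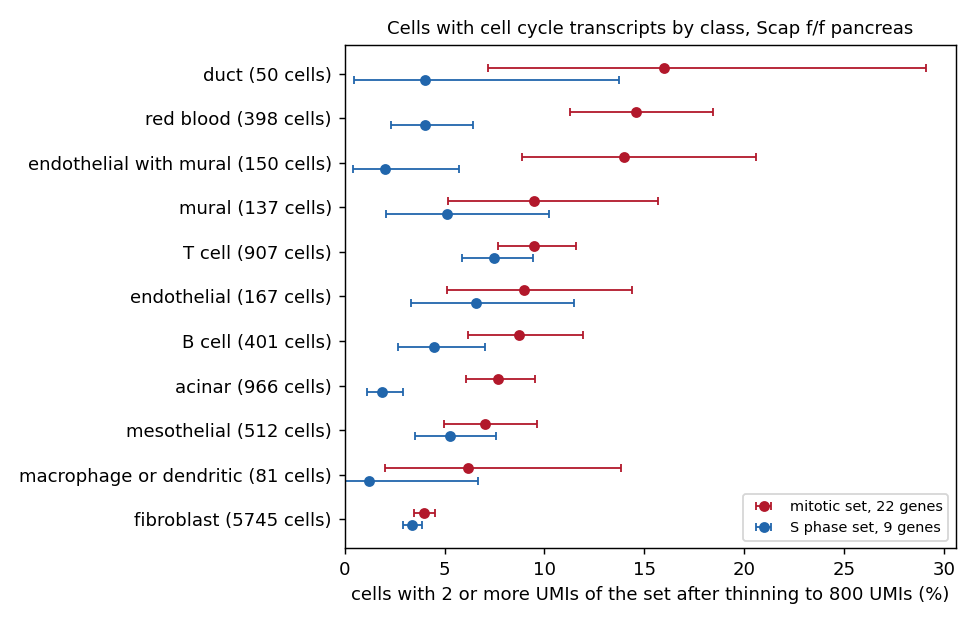
Share of cells with 2 or more UMIs of the mitotic set (red) or the S phase set (blue) after thinning to 800 UMIs, in percent on the x axis, for the 11 classes on the y axis, with exact 95% binomial intervals as bars. The mitotic share runs from 3.97% in fibroblasts to 16.0% in duct cells, and the S phase share is highest in T cells at 7.497%.

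Summed levels gave each cell's depth its weight. The mitotic set reached 1906 CPM (1804 to 2012) in red blood cells, 1306 CPM (1258 to 1355) in T cells and 1241 CPM (1162 to 1323) in B cells. Mural and duct cells were nearly level, at 1066 CPM (979.6 to 1157) and 1074 CPM (1011 to 1141), followed by endothelial cells at 940.3 CPM (885 to 998) and mesothelial cells at 922 CPM (888 to 958). Red blood cells stood apart from all 10 other classes, T and B cells did not differ beyond their intervals, and neither did endothelial and mesothelial cells. The intervals do not cover the spread between the cells of a class. In mural cells 1 cell held 197 of the 564 mitotic UMIs, in duct cells 198 of 1064, and in macrophages or dendritic cells 73 of 230. In fibroblasts the most in 1 cell was 315 of 10769. The intervals of ratios and of single genes below have the same limit. Lower levels were found in macrophages or dendritic cells, 739 CPM (647 to 841), and endothelial cells with mural markers, 718 CPM (672 to 765). Fibroblasts had 543 CPM (533 to 554) and acinar cells 476 CPM (464 to 488). Digestive enzyme transcripts took 48.5% of the acinar UMIs, and with these left out of the denominator the acinar level was 924 CPM and the fibroblast level 548 CPM, which turns their order. The 43 Schwann cells, too few for the class list, had 3020 CPM (2670 to 3402) from 270 UMIs, of which 98.5% lay in 5 cells. Their S phase set was at 682 CPM (522 to 876) from 61 UMIs, with a thinned S phase share of 13.95% (5.30 to 27.9).

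On all UMIs and among the 11 classes, the S phase set was highest in T cells, 650.4 CPM (617 to 685), then B cells, 506 CPM (456 to 559.7), and duct cells, 466 CPM (425 to 511). It was lowest in acinar cells, 214 CPM (206 to 222), and in macrophages or dendritic cells, 212 CPM (164 to 269.8), with 284 CPM (277 to 292) in fibroblasts. The ratio of mitotic to S phase UMIs, in which the total UMIs of a class cancel, was 4.68 (4.11 to 5.34) in red blood cells and 3.94 (3.28 to 4.77) in mural cells. It was 1.91 (1.85 to 1.97) in fibroblasts, 2.01 (1.88 to 2.14) in T cells, 2.22 (2.13 to 2.33) in acinar cells and 2.45 (2.17 to 2.77) in B cells. The mural ratio includes the 1 cell with 197 of the 564 mitotic UMIs. Endothelial cells with mural markers had the lowest ratio, 1.64 (1.48 to 1.82), although their mitotic share after thinning was high. With cells of 10000 or more UMIs left out, the ratio left its interval downwards in 7 classes, duct cells included, and upwards in acinar cells, to 2.42. It was then 1.47 in fibroblasts, 2.48 in mural cells and, in duct cells, where it had been 2.303 (2.06 to 2.57), below 1 at 0.492 (0.312 to 0.763).

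A level in CPM depends on what else a class transcribes, and in 2 classes a few genes took a large part. The 7 red blood markers and the digestive enzymes together made up 80.1% of the UMIs of red blood cells and 48.6% of those of acinar cells, against 0.837% to 2.74% in the other 9 classes. With these UMIs left out of the denominator in every class, the mitotic set was at 9595 CPM in red blood cells and 926 CPM in acinar cells, and the S phase set at 2051 and 416 CPM, so red blood cells were then highest for both sets. By gene, red blood cells were then highest for 33 of the 36 genes, 25 of them with an interval apart from the second class, against 11 of 36 on all UMIs. Acinar cells were lowest for none, against 18 of 36 on all UMIs. The red blood values on the reduced denominator rested mainly on the cells with fewer marker UMIs. Of the 1305 mitotic UMIs, 580 lay in 29 cells with under 50% marker UMIs and 632 in 59 cells with 50 to 80%. The gene levels below are on all UMIs unless said otherwise, and a low place of red blood or acinar cells in them is a place on that scale only.

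*Mki67* and *Top2a* are the usual marks of cycling cells. *Mki67*, which encodes the chromosome surface protein Ki-67, was at 166 CPM (137 to 200) in red blood cells, followed by 80.2 in T cells, 74.96 in B cells, 63.6 in duct cells, 55.7 in endothelial cells, 41.6 in mural cells, 39.3 in endothelial cells with mural markers, 38.2 in acinar cells, 37.2 in mesothelial cells and 29.01 in fibroblasts. The *Mki67* level was lowest in macrophages or dendritic cells, at 28.9 CPM (13.2 to 54.9). The red blood interval did not overlap that of T cells. *Top2a*, the topoisomerase that untangles sister DNA, was at 322 CPM (298 to 346) in T cells, followed by 238 in B cells, 174 in red blood cells, 168 in duct cells, 156 in endothelial cells, 134 in mural cells, 119 in mesothelial cells, 116 in endothelial cells with mural markers, 106 in macrophages or dendritic cells and 95.3 in fibroblasts. The *Top2a* level was lowest in acinar cells, at 77.7 CPM (72.98 to 82.6). T cells stood apart from B cells here. Once marker and enzyme UMIs were left out, red blood cells led for both marks, at 838 CPM (691 to 1007) and 875 CPM (725 to 1047), and acinar cells were at 151 CPM of *Top2a*, above fibroblasts at 96.2.

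*Cdk1* encodes the kinase that drives mitosis and was at 71.4 CPM (56.8 to 88.6) in endothelial cells, followed by 62.4 in mural cells, 61.3 in red blood cells, 57.5 in duct cells, 52.2 in endothelial cells with mural markers, 50.9 in B cells, 49.8 in mesothelial cells, 41.2 in T cells, 37.6 in fibroblasts and 25.7 in macrophages or dendritic cells. The *Cdk1* level was lowest in acinar cells, at 22.01 CPM (19.5 to 24.7). *Ccnb1*, cyclin B1, was at 40.9 CPM (27.2 to 59.1) in red blood cells, followed by 35.9 in mural cells, 32.1 in B cells, 29.3 in mesothelial cells, 26.1 in endothelial cells, 23.4 in T cells, 22.5 in macrophages or dendritic cells, 21.2 in duct cells, 16.3 in fibroblasts and 14.9 in acinar cells. The *Ccnb1* level was lowest in endothelial cells with mural markers, at 14.4 CPM (8.65 to 22.4). *Ccna2*, cyclin A2, was at 56.96 CPM (40.5 to 77.9) in red blood cells, followed by 36.3 in endothelial cells with mural markers, 35.9 in mural cells, 34.8 in B cells, 31.6 in T cells, 29.3 in duct cells, 28.3 in mesothelial cells, 27.9 in endothelial cells, 21.01 in acinar cells and 17.9 in fibroblasts. The *Ccna2* level was lowest in macrophages or dendritic cells, at 12.8 CPM (3.502 to 32.9). For all 3 genes the first and the second class overlapped in their intervals, and fibroblasts lay among the lower classes. Red blood cells led for all 3 and stood apart when marker and enzyme UMIs were left out. *Plk1*, a kinase of spindle assembly and cytokinesis, was at 24.2 CPM (15.5 to 36.05) in duct cells, followed by 18.3 in endothelial cells, 17.01 in mural cells, 16.1 in B cells, 15.6 in T cells, 11.7 in red blood cells, 10.6 in mesothelial cells, 9.64 in macrophages or dendritic cells, 9.07 in endothelial cells with mural markers and 8.47 in fibroblasts. The *Plk1* level was lowest in acinar cells, at 5.75 CPM (4.52 to 7.21). *Cdc20*, the activator of the anaphase-promoting complex, was at 38.2 CPM (31.4 to 45.9) in mesothelial cells, followed by 32.2 in endothelial cells, 24.2 in duct cells, 23.4 in T cells, 22.8 in B cells, 22.5 in macrophages or dendritic cells, 19.02 in acinar cells, 15.1 in mural cells, 14.4 in endothelial cells with mural markers and 12.7 in fibroblasts. The *Cdc20* level was lowest in red blood cells, at 7.303 CPM (2.37 to 17.04). Mesothelial cells led for *Cdc20*, and the red blood value rested on 5 UMIs and was 36.8 CPM (11.9 to 85.8) without marker and enzyme UMIs, within the interval of mesothelial cells.

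*Ube2c*, the ubiquitin-conjugating enzyme that works with the same complex, had the widest spread of the mitotic set. It was at 504 CPM (452 to 560) in red blood cells, followed by 141 in B cells, 99.8 in T cells, 86.9 in mesothelial cells, 75.7 in duct cells, 62.7 in endothelial cells, 62.4 in mural cells, 54.6 in macrophages or dendritic cells, 54.6 in acinar cells and 34.5 in fibroblasts. The *Ube2c* level was lowest in endothelial cells with mural markers, at 31 CPM (22.2 to 42.05). The red blood level lay far above the B cell level, and *Ube2c* made up 26.4% (24.1 to 28.9) of the mitotic UMIs of red blood cells against 4.32% to 11.5% in the other 11 classes, Schwann cells included. *Birc5*, the survivin subunit of the chromosomal passenger complex, and *Nusap1*, a spindle protein, were also highest in red blood cells, at 188 CPM (157 to 224) and 203 CPM (171 to 239.7), apart from T cells at 91.2 and 101 CPM. *Cenpf* and *Prc1*, of the kinetochore and the central spindle, led in mural cells at 113 CPM (86.5 to 146) and 94.5 CPM (70.1 to 125), with intervals that overlapped those of duct cells. *Cenpa*, the centromeric histone, led in B cells at 138 CPM (112 to 167).

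On all UMIs, red blood cells had the highest level of 8 of the 22 mitotic genes, 4 of them with an interval apart from the second class (*Mki67*, *Birc5*, *Nusap1* and *Ube2c*). Without marker and enzyme UMIs they had the highest level of 20 of the 22, with 17 apart from the second class, the exceptions being *Cdc20* and *Bub1*. On all UMIs mural and duct cells led for 3 each, T cells, B cells and endothelial cells for 2 each, and mesothelial cells and macrophages or dendritic cells for 1 each. Fibroblasts, acinar cells and endothelial cells with mural markers led for none. The remaining members ranged from 1.46 CPM of *Bub1*, a spindle checkpoint kinase with 1 UMI in red blood cells, to 77.1 CPM of *Kif11*, the kinesin that separates the spindle poles, in macrophages or dendritic cells.

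The 6 MCM genes encode the subunits of the replicative helicase. *Mcm2* was at 49.5 CPM (40.6 to 59.7) in T cells, followed by 44.7 in mesothelial cells, 40.2 in B cells, 37.8 in endothelial cells with mural markers, 34.8 in endothelial cells, 30.3 in duct cells, 29.2 in red blood cells, 21.2 in acinar cells, 19.9 in fibroblasts and 16.1 in macrophages or dendritic cells. The *Mcm2* level was lowest in mural cells, at 11.3 CPM (4.16 to 24.7). *Mcm3* was at 63.2 CPM (53.1 to 74.7) in T cells, followed by 48.4 in endothelial cells with mural markers, 40.9 in endothelial cells, 37.5 in B cells, 36.3 in duct cells, 35.3 in macrophages or dendritic cells, 29.7 in mesothelial cells, 25.7 in fibroblasts, 22.7 in mural cells and 18.99 in red blood cells. The *Mcm3* level was lowest in acinar cells, at 12.04 CPM (10.2 to 14.1). *Mcm4* was at 51.8 CPM (42.6 to 62.2) in T cells, followed by 49.1 in mesothelial cells, 47.5 in duct cells, 42.8 in fibroblasts, 40.2 in B cells, 34.8 in endothelial cells with mural markers, 32.2 in endothelial cells, 20.8 in mural cells, 19.3 in macrophages or dendritic cells and 18.99 in red blood cells. The *Mcm4* level was lowest in acinar cells, at 12.3 CPM (10.4 to 14.3). T cells led for all 3 without standing apart, and for *Mcm4* fibroblasts were close to the upper classes. *Mcm5* was at 38.9 CPM (31.1 to 48.1) in T cells, followed by 31.3 in duct cells, 28.1 in B cells, 25.7 in macrophages or dendritic cells, 24.9 in endothelial cells with mural markers, 22.6 in endothelial cells, 21.1 in mesothelial cells, 16.1 in red blood cells, 15.1 in mural cells and 12.5 in fibroblasts. The *Mcm5* level was lowest in acinar cells, at 10.7 CPM (8.96 to 12.6). *Mcm6* was at 93.4 CPM (81.05 to 107) in T cells, followed by 74.7 in duct cells, 53.5 in B cells, 46.02 in mesothelial cells, 45.3 in endothelial cells, 39.9 in fibroblasts, 38.6 in endothelial cells with mural markers, 29.5 in acinar cells, 26.4 in mural cells and 18.99 in red blood cells. The *Mcm6* level was lowest in macrophages or dendritic cells, at 16.1 CPM (5.22 to 37.5). *Mcm7* was at 131 CPM (106 to 159.9) in B cells, followed by 108 in T cells, 80.3 in red blood cells, 77.7 in duct cells, 62.4 in mural cells, 62.04 in mesothelial cells, 58.97 in endothelial cells with mural markers, 50.5 in endothelial cells, 38.4 in fibroblasts and 36.4 in acinar cells. The *Mcm7* level was lowest in macrophages or dendritic cells, at 19.3 CPM (7.08 to 41.96). T cells therefore led for 5 of the 6 subunits, and B cells for *Mcm7*, in no case apart from the second class. Without marker and enzyme UMIs red blood cells, with 11 to 55 UMIs of each, led for all 6, apart from the second class for *Mcm2* and *Mcm7*, and *Mcm3*, *Mcm4* and *Mcm6* were each at 95.6 CPM (50.9 to 164) there.

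*Pcna*, the sliding clamp, was at 172 CPM (155 to 190.1) in T cells, followed by 133 in endothelial cells with mural markers, 123 in B cells, 121 in duct cells, 108 in mesothelial cells, 107 in endothelial cells, 87.6 in red blood cells, 81.2 in mural cells, 75.01 in fibroblasts and 50.1 in acinar cells. The *Pcna* level was lowest in macrophages or dendritic cells, at 48.2 CPM (26.98 to 79.5). The T cell interval lay above that of endothelial cells with mural markers. *Rrm2*, the regulatory subunit of ribonucleotide reductase, was at 109.5 CPM (86.2 to 137) in red blood cells, followed by 40.3 in T cells, 36.1 in B cells, 29.5 in endothelial cells with mural markers, 22.5 in macrophages or dendritic cells, 18.3 in acinar cells, 17.04 in mesothelial cells, 13.1 in duct cells, 12.2 in endothelial cells and 11.3 in mural cells. The *Rrm2* level was lowest in fibroblasts, at 9.53 CPM (8.22 to 10.99). Red blood cells stood apart from T cells in this gene. *Tyms*, thymidylate synthase, was at 34.3 CPM (23.8 to 47.96) in duct cells, followed by 33.9 in T cells, 32.2 in endothelial cells, 31.8 in endothelial cells with mural markers, 27.8 in red blood cells, 23.6 in acinar cells, 21.8 in mesothelial cells, 20.6 in fibroblasts, 18.9 in mural cells and 16.1 in B cells. The *Tyms* level was lowest in macrophages or dendritic cells, at 9.64 CPM (1.99 to 28.2). No neighbouring classes in this order stood apart.

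*Pclaf*, a PCNA-binding factor, was at 216 CPM (184 to 252) in B cells, followed by 164 in T cells, 73.3 in endothelial cells with mural markers, 67.2 in red blood cells, 59.6 in duct cells, 57.5 in endothelial cells, 49.4 in mesothelial cells, 44.7 in fibroblasts, 41.8 in macrophages or dendritic cells and 37.8 in mural cells. The *Pclaf* level was lowest in acinar cells, at 25.1 CPM (22.4 to 27.9). The B cell interval lay above that of T cells, and both lay above the 9 other classes. Without marker and enzyme UMIs the red blood level was 338 CPM (248 to 451), which overlapped that of B cells. *Ccne1*, cyclin E1, was at 18.99 CPM (10.1 to 32.5) in red blood cells, followed by 18.3 in T cells, 14.7 in B cells, 7.67 in fibroblasts, 6.05 in endothelial cells with mural markers, 5.45 in mesothelial cells, 4.37 in acinar cells, 4.35 in endothelial cells, 2.02 in duct cells and 1.89 in mural cells. The *Ccne1* level was lowest in macrophages or dendritic cells, at 0 CPM (0 to 11.8). *Ccne2*, cyclin E2, was at 40.9 CPM (27.2 to 59.1) in red blood cells, followed by 24.1 in B cells, 15.9 in endothelial cells with mural markers, 15.1 in mural cells, 14.8 in endothelial cells, 14.4 in fibroblasts, 12.8 in T cells, 9.09 in duct cells, 8.18 in mesothelial cells and 7.67 in acinar cells. The *Ccne2* level was lowest in macrophages or dendritic cells, at 3.21 CPM (0.0814 to 17.9). Both E type cyclins were highest in red blood cells, with 13 and 28 UMIs there. *Hells*, a chromatin remodeller that maintains DNA methylation, was at 73.7 CPM (62.8 to 86.05) in T cells, followed by 66.9 in B cells, 53.7 in endothelial cells with mural markers, 52.2 in endothelial cells, 45.4 in duct cells, 38.2 in mesothelial cells, 30.2 in mural cells, 26.4 in fibroblasts, 23.2 in acinar cells and 22.5 in macrophages or dendritic cells. The *Hells* level was lowest in red blood cells, at 8.76 CPM (3.22 to 19.1). *Uhrf1*, which brings the maintenance methyltransferase to replicated DNA, was at 84.3 CPM (64.8 to 108) in B cells, followed by 60.6 in duct cells, 49.7 in red blood cells, 40.8 in T cells, 36.6 in endothelial cells, 35.5 in mesothelial cells, 30.2 in mural cells, 25.7 in endothelial cells with mural markers, 25.7 in macrophages or dendritic cells and 20.6 in acinar cells. The *Uhrf1* level was lowest in fibroblasts, at 16.4 CPM (14.7 to 18.3). Lymphoid cells led for both of these chromatin genes. Leaving out marker and enzyme UMIs, red blood cells led for *Uhrf1*, at 250 CPM (173 to 349), and their *Hells* level, from 6 UMIs, was 44.1 CPM (16.2 to 96.02), an interval that included the T cell level of 74.6.

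**Figure D2:**
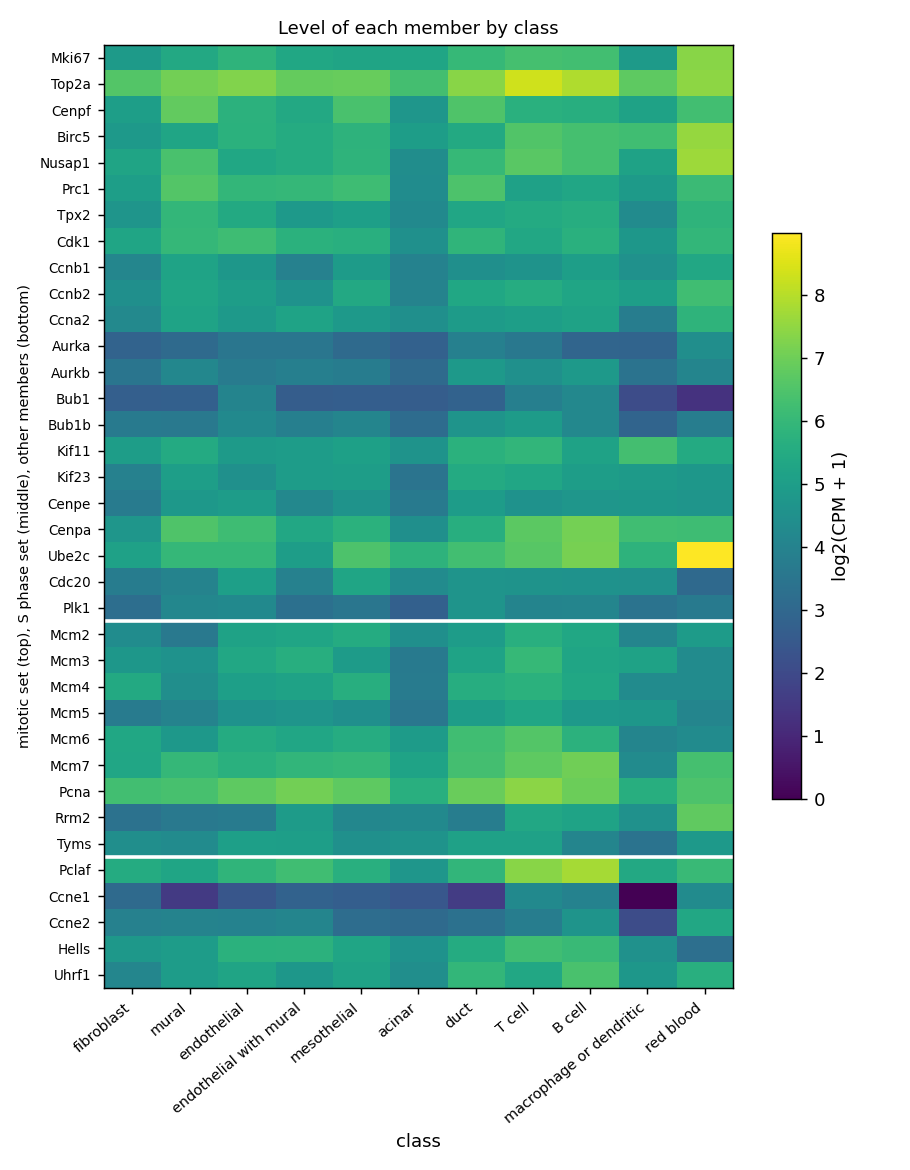
Heat map of log2(CPM + 1) for the 36 genes (rows, the mitotic set on top, the S phase set in the middle, the 5 other genes at the bottom) in the 11 classes (columns). *Ube2c* in red blood cells, at 504 CPM, is the brightest field, and *Ccne1* in macrophages or dendritic cells, at 0 UMIs, the darkest.

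Against fibroblasts, T cells showed the broadest rise. At least 2-fold higher levels were found in T cells for 22 of the 36 genes, against 19.5% of all genes with at least 20 UMIs over both classes, with a median ratio of 2.37 beside 0.982 over those genes. In B cells 17 of 36 reached 2-fold (25.9% of all genes), with a median ratio of 1.96 beside 1.17. In red blood cells 18 of 36 did (14.2%) and 3 were at least 2-fold lower (60.2%), with a median ratio of 1.92 beside 0.345. These lymphoid and red blood shares of the 36 genes lay above those of all genes. In duct cells 13 of 36 were at least 2-fold higher (28% of all genes), in mural cells 10 (27%), all of the mitotic set, and in mesothelial cells 8 (14%). Macrophages or dendritic cells had 7 (34.3%), endothelial cells 6 (21.9%) and endothelial cells with mural markers 5 (20.3%), all 3 shares under the background. In acinar cells none was 2-fold higher (12%) and 2 were 2-fold lower (41.8%), and the median ratio of 0.806 lay above that of all genes, 0.586. Without marker and enzyme UMIs, 9 of 36 were 2-fold higher in acinar cells, beside 23.3% of all genes, and none was 2-fold lower (20.7%), and in red blood cells 34 of 36 were 2-fold higher (17.9%) and none was 2-fold lower (52.2%). These counts are a description of 1 library.

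Promoter windows of RefSeq (GRCm38.p6, 250 bases before to 50 bases after the start site) were at hand for 31 of the 36 genes. Genes of late cell cycle phases are known for a CHR element (cell cycle genes homology region) near CCAAT boxes, and replication genes for E2F sites. TTTGAA or TTCGAA, the letters of the CHR, occurred on either strand in 15 of 19 mitotic genes with a window, or 78.95%, in 2 of 8 S phase genes, and in 21.7% of 27025 genes. CCAAT occurred in 17 of the 19 and 7 of the 8, against 41.1% of all genes. The E2F letters TTTCCCGC, TTTGGCGC, TTTCGCGC, TTCCCGCC, TTGGCGCC or TTCGCGCC, of which some overlap each other, occurred in 2 of the 19, 4 of the 8 and 3 of the 4 other members with a window, against 5.05% of all genes. Within the 100 bases before the start site, CHR letters occurred in 7 of the 19 mitotic genes, and both CHR letters and CCAAT in 6 of the 19. Over all genes the shares in these 100 bases were 7.18% and 1.36%. Other CHR matches lay farther upstream or after the start site. E2F letters occurred within these 100 bases in 1 of the 8 S phase genes and 2 of the 4 other members, against 2.02% of all genes. The genes printed below are among those with matches and do not stand for the rest. A match of letters is no evidence that a factor binds there. The 100 bases before the start site, 5′ to 3′ on the strand of the gene, are given for 3 mitotic genes that led in 3 different classes on all UMIs and for 2 genes with E2F letters, with all matches in capitals.
Ube2c (chr2:164769829-164769928, plus strand): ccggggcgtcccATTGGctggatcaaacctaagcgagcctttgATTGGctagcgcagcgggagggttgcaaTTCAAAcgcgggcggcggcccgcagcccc
Top2a (chr11:99024190-99024289, minus strand): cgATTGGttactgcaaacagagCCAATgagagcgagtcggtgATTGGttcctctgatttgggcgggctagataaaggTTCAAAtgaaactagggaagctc
Cdc20 (chr4:118437344-118437443, minus strand): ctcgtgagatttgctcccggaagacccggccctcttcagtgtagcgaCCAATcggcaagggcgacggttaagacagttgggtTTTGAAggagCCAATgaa
Mcm6 (chr1:128359706-128359805, minus strand): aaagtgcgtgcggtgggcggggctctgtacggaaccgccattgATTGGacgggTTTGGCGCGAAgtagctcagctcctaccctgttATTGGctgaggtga
Hells (chr19:38930890-38930989, plus strand): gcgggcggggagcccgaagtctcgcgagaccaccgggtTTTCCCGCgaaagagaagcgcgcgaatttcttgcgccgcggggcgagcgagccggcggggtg
*Ube2c*, *Top2a* and *Cdc20*, which led in red blood cells, T cells and mesothelial cells on that scale, all had CHR letters within 30 bases of the start site and CCAAT or its complement ATTGG upstream of them. *Cdc20* had a further CCAAT between the CHR letters and the start site. *Mcm6* had 2 overlapping E2F matches, 1 on each strand, between a pair of ATTGG letters. *Hells* had 1 E2F match and no CCAAT.

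Red blood cells differed among themselves, and most of their mitotic and S phase UMIs lay in cells of lower globin content. The 7 red blood markers, mainly globins, made up 6.4 to 50% of the UMIs in 29 cells, 50 to 80% in 59, 80 to 90% in 71 and 90 to 100% in 239. These groups held 580, 632, 39 and 54 of the 1305 mitotic UMIs. The thinned mitotic share was 79.3% (60.3 to 92.01), 49.1% (35.9 to 62.5), 7.04% (2.33 to 15.7) and 0.418% (0.0106 to 2.31) in these groups. The S phase share was 51.7% (32.5 to 70.5) in the first group and 1.695% (0.0429 to 9.09) in the second. It was 0 of 71 cells in the third, which allows up to 4.23%, and 0 of 239 in the last, which allows up to 1.26%. Unthinned, 15.3% of the cells of the second group had 2 or more S phase UMIs.

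In CPM, the mitotic set fell from 6897 (6347 to 7482) through 4968 and 351 to 149 (112 to 194). Globin UMIs dilute every other gene, and the median number of UMIs outside the markers was 1484, 663, 173 and 104. Per 1000000 UMIs outside the markers, the mitotic set was 9976, 14543, 2713 and 1927, so that its highest level was then in the second group. On the same scale the S phase set was 3939, 966, 139 and 214, and the first 2 intervals did not overlap. *Ube2c* rose as a share of the mitotic UMIs, from 18.4% (15.4 to 21.9) to 27.5% (24.1 to 31.2), 58.97% (42.1 to 74.4) and 75.9% (62.4 to 86.5). In the last group 14.2% of cells had a *Ube2c* UMI, and 41 of its 54 mitotic UMIs were of *Ube2c*. Over the class as a whole *Ube2c* was 26.4%, so the share differed among these cells beyond its counting interval.

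**Figure D3:**
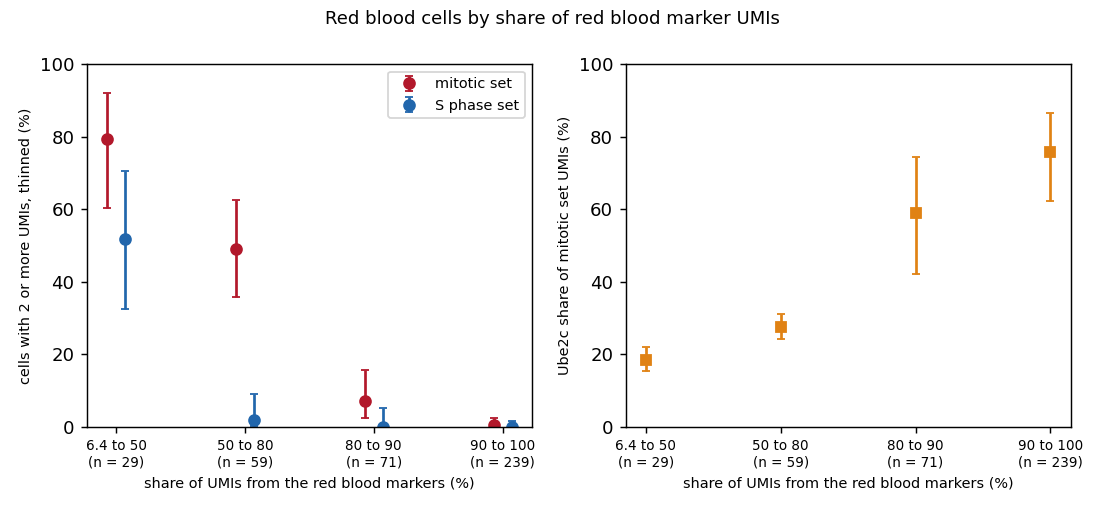
Red blood cells in 4 groups by the share of their UMIs that comes from 7 red blood markers (x axis, percent, with the number of cells). The left panel gives the percent of cells with 2 or more mitotic (red) or S phase (blue) UMIs after thinning, which falls from 79.3% and 51.7% to 0.418% and 0, and the right panel gives *Ube2c* as a percent of mitotic UMIs, which rises from 18.4% to 75.9%. Bars are exact 95% intervals.

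Cells rich in mitotic UMIs were then set against the other cells of their class, with a cut of at least 5 mitotic UMIs and at least 10 per 10000 UMIs that was chosen after the distribution had been seen. The 779 rich cells, 7.12% of those retained, held 83.3% of the mitotic UMIs and 30.9% of the S phase UMIs. Of the retained cells, 226 had 5 to 9 mitotic UMIs and so lay near the cut. The share of rich cells was 4.06% (3.56 to 4.598) in fibroblasts, 9.48% (7.65 to 11.6) in T cells, 9.23% (6.58 to 12.5) in B cells, 14.4% (9.43 to 20.6) in endothelial cells and 22% (11.5 to 35.96) in duct cells. It was 8.03% (4.08 to 13.9) in mural cells, 17.3% (11.65 to 24.4) in endothelial cells with mural markers and 8.59% (6.31 to 11.4) in mesothelial cells. Acinar cells had 11.5% (9.55 to 13.7), macrophages or dendritic cells 7.41% (2.77 to 15.4) and red blood cells 13.1% (9.91 to 16.8). The cut was applied without thinning, so these shares depend on depth, and 10 of the 11 rich duct cells had 10000 or more UMIs. Rich cells were deeper, with a median of 4650 UMIs against 2554, and Scrublet, which scores doublets, marked 5.26% of them and 4.88% of the others. Of the 41 marked rich cells, 31 were among the cells left out as mixed. In endothelial cells with mural markers, 2 of 26 rich cells and 1 of 124 others were marked.

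The genes of the mitotic set had 73.5% (*Cdk1*) to 89.9% (*Plk1*) of their UMIs in the rich cells, as the cut fixes. Of the 14 other genes, which the cut did not use, *Pclaf* had 75.6% there and *Rrm2* 65.0%. *Ccne2* had 47.5%, *Uhrf1* 45.6%, *Tyms* 41.2% and *Ccne1* 40.7%. *Mcm7*, *Mcm5*, *Hells*, *Pcna*, *Mcm3* and *Mcm2* had 34.9% to 23.1%, and *Mcm6* and *Mcm4* had the least, 21.0% and 20.4%. The rich cells held 13.0% of all UMIs. Over all retained cells, *Mcm4* and *Mcm6* transcripts were thus spread over the other cells to a large extent. *Pclaf* and *Rrm2* transcripts were so to a lesser extent, which differed by class. Rich fibroblasts had 80.93% of the *Pclaf* and 71.43% of the *Rrm2* UMIs of their class. The shares were 62.07% and 56% in mesothelial cells, and 43.43% and 35.98% in acinar cells.

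The S phase set differed between rich and other cells to an extent that depended on the class. In red blood cells it was at 1873 against 31.2 CPM, a ratio of 60.04 (36.8 to 105). In B cells it was at 1803 against 172 CPM, a ratio of 10.5 (8.34 to 13.3). In fibroblasts it was at 994 against 236 CPM, a ratio of 4.22 (3.96 to 4.49), and in T cells at 1645 against 411 CPM, a ratio of 3.999 (3.599 to 4.44). Marker and enzyme UMIs made up 46.0% of the UMIs of rich red blood cells and 88.9% of those of the others, and without them the red blood ratio was 12.3 (7.57 to 21.5), which overlapped that of B cells. In mesothelial cells the set was at 573 against 367 CPM, a ratio of 1.56 (1.35 to 1.79). In acinar cells it was at 299 against 198 CPM, a ratio of 1.51 (1.38 to 1.65), or 1.35 (1.23 to 1.47) without marker and enzyme UMIs. The cut set acinar cells apart less sharply. Rich acinar cells held 64.7% of the mitotic UMIs of their class, against 84.1% to 91.6% in the other classes of at least 50 cells. The median ratio of the mitotic genes was 9.52 in acinar cells and 134 in fibroblasts, so the S phase ratios of these classes are not on equal terms. In duct cells, with 11 rich cells, the S phase set was lower in the rich cells, at 391 against 501 CPM, a ratio of 0.78 (0.629 to 0.963). Duct cells other than the rich ones had 2 or more S phase UMIs in 64.1%, at a median of 7834 UMIs.

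By gene, *Pclaf* was at 564 against 9.11 CPM in rich and other fibroblasts, 752 against 23.3 CPM in T cells and 1032 against 5.05 CPM in B cells. *Rrm2* was at 106 against 2.91 CPM in fibroblasts, 177 against 7.39 CPM in T cells and 41.5 against 13.9 CPM in acinar cells. *Mcm6* was at 89.6 against 36.5 CPM in fibroblasts, 46.1 against 46 CPM in mesothelial cells and 21.7 against 31.01 CPM in acinar cells. For *Mcm6*, rich acinar cells were thus below the others, also without marker and enzyme UMIs, at a ratio of 0.626 (0.448 to 0.856). Of the 14 genes outside the mitotic set, 13 were at least 2-fold higher in rich fibroblasts (11.7% of all genes tested) and 13 in rich T cells (8.32%), but 4 in rich acinar cells (6.02%) and 5 of 13 tested in rich mesothelial cells (4.86%). None of these 14 genes (13 tested in mesothelial cells) was at least 2-fold lower in the rich cells of these classes. Of all genes tested, 4.14% were so in fibroblasts, 7.73% in T cells, 1.95% in acinar cells and 4.19% in mesothelial cells. The mitotic set is not counted here because it defines the rich cells.

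**Figure D4:**
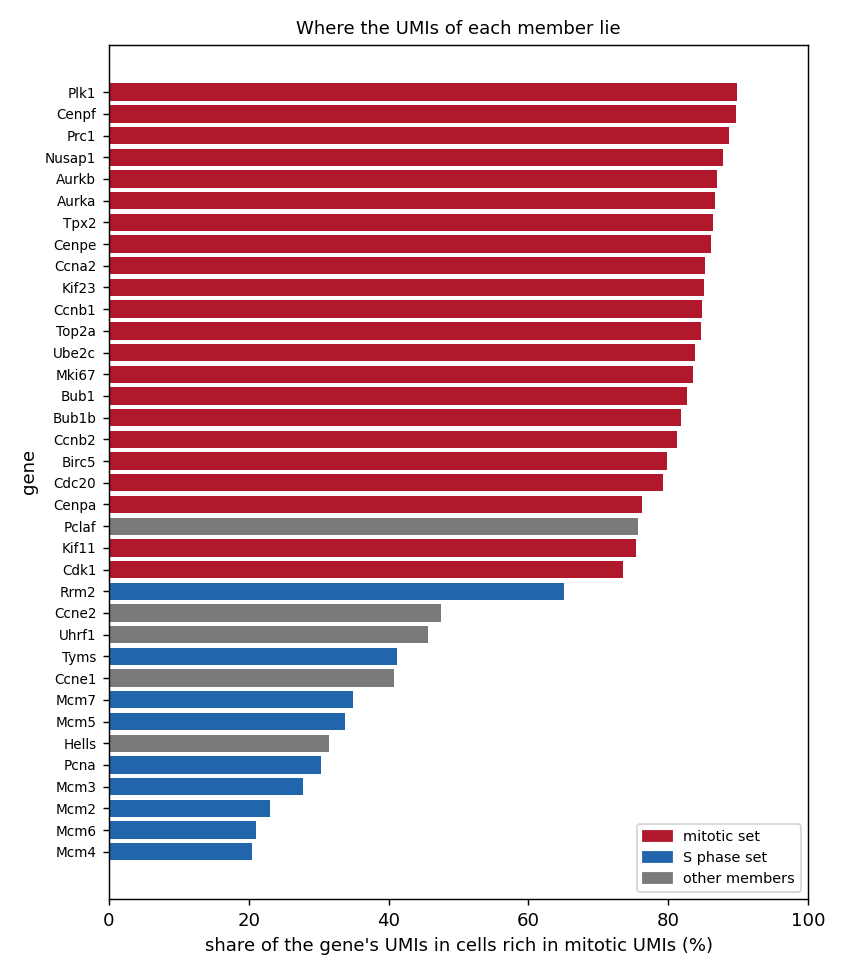
Percent of each gene's UMIs (x axis) that lay in the 779 cells rich in mitotic UMIs, for the 36 genes (y axis), over all retained cells. Mitotic genes (red), which define the cells, run from 73.5% to 89.9%, S phase genes (blue) from 20.4% for *Mcm4* to 65.0% for *Rrm2*, and the 5 other genes (grey) from 31.5% for *Hells* to 75.6% for *Pclaf*.

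Acinar cells spanned a wide range of depth. The thinned mitotic share was 12.2% (5.71 to 21.8) in the 74 cells of 800 to 2000 UMIs, 5.22% in the 364 of 2000 to 5000, 7.14% in the 168 of 5000 to 10000, 4.52% in the 155 of 10000 to 20000 and 13.2% (8.86 to 18.6) in the 205 of 20000 or more. The values were highest at both ends. The intervals overlapped, except that of the deepest cells, which lay above that of the cells of 2000 to 5000 UMIs (3.17 to 8.03). The 205 deepest cells held 4550 of the 6209 acinar mitotic UMIs. With enzyme UMIs left out and the rest thinned to 500, 11.6% of acinar cells and 2.94% of fibroblasts had 2 or more mitotic UMIs, and 3.12% and 1.72% had 2 or more S phase UMIs.

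The D type cyclins, which act before the members described so far, differed from each other in their order of classes. *Ccnd1* was at 1015 CPM (953 to 1079) in duct cells, followed by 448 in endothelial cells with mural markers, 434 in endothelial cells, 279.7 in mural cells, 188 in acinar cells, 73.9 in macrophages or dendritic cells, 71.98 in fibroblasts, 46.4 in mesothelial cells, 15.1 in T cells and 6.69 in B cells. The *Ccnd1* level was lowest in red blood cells, at 5.84 CPM (1.59 to 14.96). *Ccnd2* was at 848 CPM (772 to 931) in mural cells, followed by 673 in endothelial cells with mural markers, 639 in T cells, 435 in duct cells, 286 in endothelial cells, 272 in B cells, 219 in acinar cells, 198 in mesothelial cells, 191 in fibroblasts and 61.05 in macrophages or dendritic cells. The *Ccnd2* level was lowest in red blood cells, at 20.4 CPM (11.2 to 34.3). *Ccnd3* was at 388 CPM (363 to 415) in T cells, followed by 282 in B cells, 203 in fibroblasts, 193 in mesothelial cells, 99.9 in duct cells, 96.4 in macrophages or dendritic cells, 74 in endothelial cells, 71.8 in endothelial cells with mural markers, 71.8 in mural cells and 51.1 in red blood cells. The *Ccnd3* level was lowest in acinar cells, at 40.8 CPM (37.4 to 44.4). Compared across classes, *Ccnd1* was highest in epithelial and vascular cells, and *Ccnd2* in mural cells, endothelial cells with mural markers and T cells. *Ccnd3* was highest in lymphoid cells, fibroblasts and mesothelial cells. Within a class the order could differ. *Ccnd2* was above *Ccnd1* in acinar cells, mural cells and endothelial cells with mural markers. It was above *Ccnd3* in T cells and, with overlapping intervals, in mesothelial cells. The red blood level of *Ccnd3* was 257 CPM (179 to 358) without marker and enzyme UMIs, behind T and B cells. In rich T cells *Ccnd2* was at 354 against 708 CPM in other T cells, a ratio of 0.501 (0.420 to 0.594), and *Ccnd3* at 203 against 433, a ratio of 0.470 (0.371 to 0.587). In red blood cells *Ccnd3* was at 200.2 against 12.9 CPM, a ratio of 15.6 (6.65 to 42.3), or 3.21 (1.37 to 8.69) without marker and enzyme UMIs, from 28 and 7 UMIs. *Ccnd1* was at 262 against 175 CPM in rich and other acinar cells.

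Of the CDK inhibitors, *Cdkn1c*, which encodes p57 and is expressed from the maternal allele, had 15743 UMIs in fibroblasts. The *Cdkn1c* level was 794 CPM (782 to 807) in fibroblasts, 125 CPM (106 to 145) in endothelial cells with mural markers and 109.8 CPM (98.1 to 122) in mesothelial cells, and 79.4 CPM or less elsewhere. Another inhibitor was above it in 6 classes: *Cdkn1a* in acinar cells and in macrophages or dendritic cells, *Cdkn1b* in duct and B cells, and *Cdkn2d* in T cells and red blood cells. Rich fibroblasts had 704 CPM and the others 800.4 CPM, a ratio of 0.879 (0.821 to 0.941), so the level was nearly as high in cells full of mitotic transcripts. *Cdkn1a*, p21, was highest in macrophages or dendritic cells at 167 CPM (125 to 219), and *Cdkn1b*, p27, ranged from 23.2 CPM in acinar cells to 68.7 in duct cells. *Cdkn2c*, p18, and *Cdkn2d*, p19, were higher in rich cells, in fibroblasts at 293 against 12.02 CPM (ratio 24.4, 20.6 to 28.9) and 140.0 against 13.96 CPM (ratio 10.0, 8.24 to 12.2). *Cdkn2d* was at 300.3 against 3.67 CPM in red blood cells, from 42 and 2 UMIs, a ratio of 81.8 (21.3 to 698), or 16.8 (4.38 to 144) without marker and enzyme UMIs. *Cdkn2a* and *Cdkn2b* were at 3.78 CPM or less in every class.

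**Figure D5:**
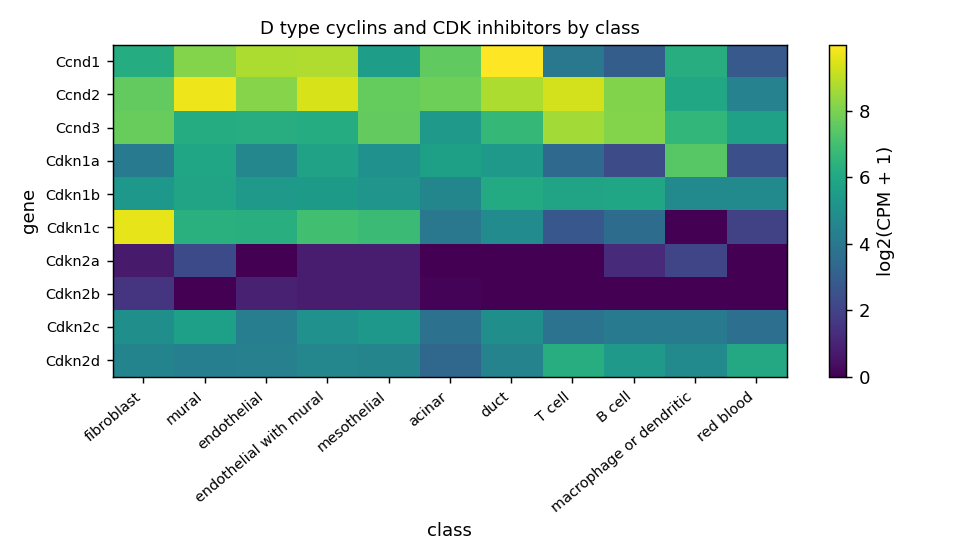
Heat map of log2(CPM + 1) for the 3 D type cyclins and 7 CDK inhibitors (rows) in the 11 classes (columns). *Ccnd1* is brightest in duct cells at 1015 CPM, *Ccnd2* in mural cells at 848 CPM, *Ccnd3* in T cells at 388 CPM and *Cdkn1c* in fibroblasts at 794 CPM.

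The other cell cycle lists followed the members in some classes only. In rich against other fibroblasts, at least 2-fold higher levels were found for 31 of 31 partners of mitosis, 11 of 11 genes of DNA synthesis and repair, 6 of 6 of replication licensing, 5 of 8 E2F and pocket proteins and 1 of 7 tested G1 cyclins and kinases, beside 11.7% of all genes. In rich T cells the counts were 28 of 29, 11 of 11, 5 of 6, 3 of 7 and 1 of 7, beside 8.32%. In rich acinar cells they were 31 of 31, 4 of 11, 2 of 6, 3 of 8 and 0 of 8, beside 6.02%, and in rich mesothelial cells 28 of 28, 5 of 11, 0 of 4, 2 of 6 and 0 of 7, beside 4.86%. All but 1 of the mitotic partners tested were thus higher in the rich cells of these 4 classes. The S phase lists were mostly so in fibroblasts and T cells. The rich cells held 64.7% of the mitotic UMIs of acinar cells, against 87.3% to 91.35% in the other classes of the 4, so the acinar counts are not on equal terms.

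Of the 2 genes with the most UMIs in each of these lists, *Gmnn*, the geminin that blocks relicensing, ranged from 10.4 CPM in fibroblasts to 61.6 CPM in duct cells, and *Gins2*, a helicase subunit, from 3.78 CPM in mural cells to 30.3 CPM in duct cells. *Dut*, which removes dUTP, ranged from 16.1 CPM in macrophages or dendritic cells to 177 CPM in T cells, and *Pola1*, the catalytic subunit of polymerase alpha, from 16.1 CPM in macrophages or dendritic cells to 118 CPM in duct cells. Duct cells or T cells had the highest level of each of these 4 genes on all UMIs. *Rb1*, the retinoblastoma protein that holds E2F in check, ranged from 19.1 CPM in acinar cells to 146 CPM in B cells, and its relative *Rbl2* from 10.2 CPM in red blood cells to 69.2 CPM in T cells. *Smc4*, of condensin, ranged from 44.5 CPM in fibroblasts to 391 CPM in T cells, and *Cks1b*, a CDK subunit, from 43.3 CPM in acinar cells to 104 CPM in fibroblasts. Fibroblasts were lowest in *Smc4* and, within the interval of duct cells, highest in *Cks1b*. Without marker and enzyme UMIs, red blood cells had the highest level of 5 of these 8 genes, among them *Rb1* at 596 CPM (473 to 740.2) from 81 UMIs, and acinar cells were lowest for none of the 8.

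Among 11826 genes outside the lists with at least 200 UMIs, the 5 whose log2(CPM + 1) ran most like that of the mitotic set over the 11 classes were *Bard1* (Pearson r = 0.92), *Lockd* (0.89), *Rnf123* (0.87), *1600020E01Rik* (0.85) and *Trim59* (0.83). *Bard1* ranged from 4.94 CPM in fibroblasts to 21.98 CPM in T cells, and *Lockd* from 9.64 CPM in macrophages or dendritic cells to 86.2 CPM in red blood cells. The 11 points share 1 library and the depth of each class, and the correlations are a description.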

How the data were processed

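One droplet library of *Scap* f/f pancreas was analysed. The authors aligned the reads to mm10 with Cell Ranger 7.1.0 (10x 3′ kit version 3.1), as the labels and methods state, and deposited counts, that is, UMIs per gene and barcode without normalization. The ambient RNA removal of the study was not repeated. Members were matched by symbol. The members and lists were chosen with earlier results of these data known.

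Barcodes between 800 and 100000 UMIs were retained when their mitochondrial share was below 15%. A class needed 2 or more of its markers, 3 or more marker UMIs and a minimum of marker UMIs per 10000, from 8 to 640 by lineage, set after the marker distributions had been seen and without cell cycle genes. Cells passing several gates were left out as mixed, with some exceptions. Mesothelial cells were retained when they also passed the fibroblast gate. Cells passing the endothelial and mural gates took the class whose level, relative to its gate, was at least 3-fold the other, or else formed their own class. Acinar cells that passed the duct or endocrine gate, mesothelial cells that passed the duct gate and T cells that passed the NK gate were also retained. Cells marked as doublets by Scrublet (scanpy 1.11.5, expected rate 0.08) were retained. UMIs were summed per class and given as CPM with exact Poisson intervals, shares with Clopper-Pearson intervals, and ratios with exact conditional binomial intervals, all at 95% and for counting error only. Fold counts used genes with at least 20 UMIs over both groups. In the main results a share of 0 was given with the limit set by 3 counts. Shares of 0 under the alternatives are given without it and do not show absence. No test was made, since there is 1 library. Python 3.11.15, numpy 2.4.6, scipy 1.17.1 and pandas 2.3.3 were used, and the functions were tested on simulated data.

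Genes were named by rule: 21 members in full and the rest by range (*Ube2c*, given in full as well, was chosen after its values had been seen), the D cyclins and CDK inhibitors, the 2 genes with the most UMIs of each other list, and the 5 genes most correlated with the mitotic set over classes. Among the members given by range, those named singly were chosen after their values had been seen. Alternatives were other UMI and mitochondrial limits, a stricter gate, other UMI minimums, removal of enzyme UMIs, or of these and red blood marker UMIs, from the denominator, subtraction of free RNA, removal of scored doublets, and classes from clusters made without cell cycle genes.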

Additional observations from a re-analysis of the deposited data

Results flagged for a closer look

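Mitotic transcripts were also found in barcodes that no comparison used. The 752 barcodes with 800 or fewer UMIs held 144 UMIs of the mitotic set, a level of 291 CPM (246 to 343), above the limit that a count of 0 allows. The level lay below that of each of the 11 classes, of which acinar cells had the lowest at 476 CPM. Whether these barcodes are small cells or free RNA was not tested.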

How the results depend on the processing

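Of 343 values recomputed under an alternative over the 11 classes, 265 stayed within the counting interval of the reported value, 77 left it and 1 turned. The mitotic share was above that of fibroblasts under all 10 alternatives run for mural, mesothelial, T, B and red blood cells. It was also above under the 9 run for endothelial cells and for endothelial cells with mural markers. Clusters gave neither of these classes, nor duct cells, so that alternative is missing for them. With 1 UMI in place of 2 the mitotic share was 9.33% in fibroblasts, 19.7% in mural cells, 22.8% in endothelial cells, 22.7% in endothelial cells with mural markers, 13.5% in mesothelial cells, 21.3% in acinar cells, 19.3% in T cells, 17.5% in B cells and 27.9% in red blood cells, and the S phase share was 16.4% in fibroblasts, 16.8% in mural cells, 24.6% in endothelial cells, 20.7% in endothelial cells with mural markers, 23.6% in mesothelial cells, 13.04% in acinar cells, 28% in duct cells, 24.7% in T cells, 16.2% in B cells, 13.6% in macrophages or dendritic cells and 9.296% in red blood cells. With 3 UMIs the mitotic share was 3.19% in fibroblasts, 4.79% in endothelial cells, 8% in endothelial cells with mural markers and 2.899% in acinar cells, and the S phase share was 1.097% in fibroblasts, 0% in mural cells, 1.796% in endothelial cells, 1.95% in mesothelial cells, 0.311% in acinar cells, 0% in duct cells, 2.54% in T cells, 2.24% in B cells and 0% in macrophages or dendritic cells. With enzyme UMIs left out and cells thinned to 500 UMIs, the mitotic share was 2.94% in fibroblasts, 8.67% in endothelial cells with mural markers, 11.6% in acinar cells and 6% in duct cells, and the S phase share was 1.72% in fibroblasts, 3.12% in mesothelial cells, 3.12% in acinar cells, 3.75% in T cells, 1.995% in B cells and 0% in macrophages or dendritic cells. The acinar levels without enzyme UMIs were 924 CPM (mitotic) and 416 CPM (S phase). Counting neither red blood marker nor enzyme UMIs in the class totals, the mitotic level was 926 CPM in acinar cells and 9595 CPM in red blood cells, and the S phase level 416 CPM in acinar cells and 2051 CPM in red blood cells.

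With a lower limit of 1500 UMIs, which leaves fewer and deeper cells, the mitotic share was 13.6% in T cells, 17.3% in B cells and 27.4% in red blood cells, and the S phase share 9.84% in T cells, 8.67% in B cells, 0% in macrophages or dendritic cells and 8.57% in red blood cells. With an upper limit of 10000 UMIs the mitotic to S phase ratio was 1.47 in fibroblasts, 2.48 in mural cells, 1.31 in endothelial cells, 1.46 in endothelial cells with mural markers, 1.59 in mesothelial cells, 2.42 in acinar cells, 0.492 in duct cells and 1.82 in T cells, the duct value turning to below 1, and the mitotic and S phase shares of duct cells were 0%. The cause was not tested. A stricter gate gave an S phase share of 0% in macrophages or dendritic cells and ratios of 2.16 in T cells and 2.54 in macrophages or dendritic cells. Classes from clusters gave ratios of 2.11 in mesothelial cells, 1.27 in macrophages or dendritic cells and 3.51 in red blood cells, and a mitotic share of 1.05% in macrophages or dendritic cells. A mitochondrial limit of 5% gave a ratio of 1.61 in duct cells. Subtraction of a free RNA profile gave mitotic levels of 463 CPM in acinar cells, 1161 CPM in duct cells, 1358 CPM in T cells and 2017 CPM in red blood cells. Leaving out cells marked by Scrublet moved no share beyond its interval. The mean over all random draws, the denominator without marker and enzyme UMIs and the share of rich cells without enzyme UMIs were chosen after the data had been seen, and the last was 15.6% in acinar cells against 11.5%. No paired analysis was possible because there is 1 library. Cell number limits the small classes, as duct cells numbered 50 and macrophages or dendritic cells 81. The shares of 0% given above therefore do not show absence.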

Other observations

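Clusters made without the 36 members and the other cell cycle lists still gathered some of the cells rich in mitotic UMIs. Cell cycle genes outside the members and lists were not removed, so the clusters are not free of the cell cycle. One cluster of 196 cells lay 99.5% within the fibroblast gate, and 90.3% of its cells were rich in mitotic UMIs. In a cluster of 125 cells, of which 73.6% passed the red blood gate, 60.8% were rich, against 0.314% in the other red blood cluster of 318 cells. In a cluster of 81 cells, of which 82.7% passed the B cell gate, 35.8% were rich, against 3.51% in the other B cell cluster of 427 cells. The 3 clusters named acinar held 9.66% to 18.4% rich cells.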
